A study of Mus musculus with 9 samples.

Results

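The genes described here are 8 genes of the red cell membrane and of cytosolic carbonic anhydrase: Ermap, Kel, Rhd, Car1, Car2, Add2, Slc4a1 and Aqp1. Their probes were picked by gene symbol, though the set was named with earlier results of these data known. All 8 were on the array, and they are 8 of 21872 genes measured. Each is read by 1 probe, so no second probe stands beside any of them. Expression was measured in cells sorted from mouse bone marrow with a gate for granulocyte-monocyte progenitors (GMPs), which keeps cells without lineage markers, Sca1 or CD150 and with cKit and CD16/32 on their surface. Total RNA was labelled with Cy3 and hybridised to 1-colour Agilent arrays of the SurePrint G3 mouse design. In the LeuA group (also AE1) and the LeuB group (also AE3), the secondary recipients had received spleen cells of moribund leukaemic mice of the genotype Tet2-/-:AE, where AE stands for the AML1-ETO fusion. Each leukaemia goes back to a different primary mouse. In the WT group the recipients had received bone marrow of WT mice. All groups are on a C57BL/6 background and were sampled 1 month after transplantation, with 3 arrays per group, called biological replicates in the labels. The labels give no age and do not say what drives AE or whether an array holds 1 recipient or a pool. Replicates of a leukaemia descend from the same primary leukaemia, so the p-values measure the spread between these arrays and not between leukaemias. Donor tissue, spleen or marrow, changes together with genotype and cannot be told apart from it. The label on transplanted cells in the LeuB arrays names LeuA together with AE3, and these arrays were grouped by their titles. LeuB 2 and LeuB 3 lay on slide 2 and the other 7 arrays on slide 1.

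A red cell is a bag of haemoglobin held by a lipid membrane, a spectrin skeleton under it and the proteins that join them. Band 3, the product of Slc4a1, is the main anchor and also exchanges chloride for bicarbonate. Carbonic anhydrase interconverts carbon dioxide and bicarbonate inside the cell, so that band 3 and the enzyme together let blood carry carbon dioxide. Several membrane proteins carry blood group antigens in humans: ERMAP carries Scianna, KEL carries Kell, RHD carries Rh and AQP1 carries Colton. These genes are best known from developing red cells and are not counted among the usual genes of GMPs. Aqp1 and Car2 are also used by many other tissues, among them endothelium for Aqp1 and osteoclasts for Car2.

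The promoter windows of 5 of the genes were in the RefSeq table used here (GRCm38.p6, 250 bases before and 50 after a transcription start). Those of 4 are shown because 3 of these genes, Ermap, Kel and Rhd, moved together between the groups, while Aqp1 moved the other way. Sequences are in lower case from 5′ to 3′ along the gene, and capitals mark every match to the searched letters.
Ermap, chr4:119189946-119190245, minus strand: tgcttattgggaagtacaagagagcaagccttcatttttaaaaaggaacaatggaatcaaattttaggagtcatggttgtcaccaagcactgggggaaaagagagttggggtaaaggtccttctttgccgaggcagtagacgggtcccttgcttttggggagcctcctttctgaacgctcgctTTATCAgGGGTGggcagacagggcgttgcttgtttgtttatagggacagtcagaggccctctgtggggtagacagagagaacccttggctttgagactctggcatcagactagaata
Kel, chr6:41704276-41704575, minus strand: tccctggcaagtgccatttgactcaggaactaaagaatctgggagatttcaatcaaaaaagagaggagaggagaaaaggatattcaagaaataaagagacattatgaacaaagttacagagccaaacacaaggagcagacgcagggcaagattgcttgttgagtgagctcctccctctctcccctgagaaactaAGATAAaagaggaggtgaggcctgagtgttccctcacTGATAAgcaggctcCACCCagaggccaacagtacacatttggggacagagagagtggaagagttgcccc
Rhd, chr4:134864286-134864585, plus strand: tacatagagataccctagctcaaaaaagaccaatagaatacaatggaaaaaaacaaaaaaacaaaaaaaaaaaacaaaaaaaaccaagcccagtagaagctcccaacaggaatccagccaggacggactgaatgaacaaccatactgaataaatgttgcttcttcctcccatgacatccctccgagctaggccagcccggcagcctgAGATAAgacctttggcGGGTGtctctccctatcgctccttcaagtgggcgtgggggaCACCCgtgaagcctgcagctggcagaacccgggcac
Aqp1, chr6:55336049-55336348, plus strand: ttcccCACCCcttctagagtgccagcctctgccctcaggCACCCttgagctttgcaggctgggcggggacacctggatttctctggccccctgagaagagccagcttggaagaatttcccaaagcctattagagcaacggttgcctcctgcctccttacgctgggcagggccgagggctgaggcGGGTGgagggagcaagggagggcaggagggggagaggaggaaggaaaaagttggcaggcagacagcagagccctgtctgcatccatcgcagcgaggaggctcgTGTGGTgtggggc

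The letters searched, on both strands, were AGATAA or AGATAG or TGATAA or TGATAG for GATA factors, CACCC for KLF factors, and TGTGGT or TGCGGT for RUNX factors. None of the 14 matches in the 5 windows overlapped another. The Kel window held 2 GATA matches, starting at -56 and -19 bases from the start site, and a KLF match at -5. The Ermap window held a GATA match at -67 with a KLF match next to it at -60. In the Rhd window the GATA match lay at -43, with KLF matches at -27 and 14. The Aqp1 window held 3 KLF matches, 1 RUNX match at 37 and 0 GATA matches. Add2, whose window is not printed, held a GATA match at -234 and a KLF match at -131. GATA letters were thus found in 4 of the 5 windows, KLF letters in 5 and RUNX letters in 1. Among 32851 windows of the same length, 29.8% held GATA letters, 57.5% KLF letters and 22.4% RUNX letters. These are matches of letters and not measured binding sites, and any link between them and expression was not tested. No window was available for Slc4a1, Car1 and Car2, and the printed windows were chosen with expression known.

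**Figure D1:**
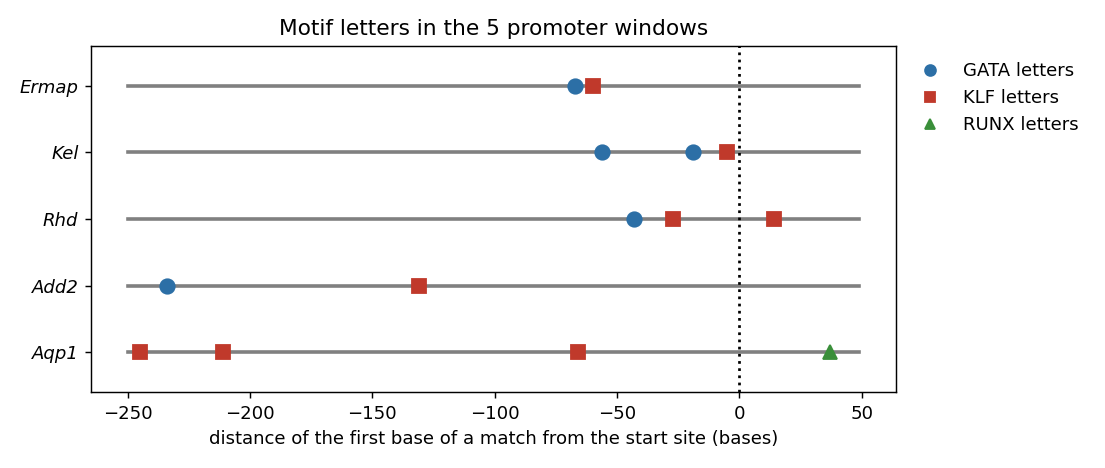
Position of the searched letters in the promoter windows of 5 genes. The x axis is the distance in bases of the first base of a match from the transcription start (dotted line), and each grey line is the window of 1 gene. GATA letters lie between -67 and -19 in Ermap, Kel and Rhd, at -234 in Add2, and are not found in the Aqp1 window.

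Ermap, Kel, Rhd, Car1 and Car2 were far higher in both leukaemias than in WT, 37.3-fold to 106-fold by group means. Add2 rose less, Slc4a1 was raised in LeuB by the test and not in LeuA, and Aqp1 fell in both. Values below are log2 intensities as deposited, on a scale that runs between 5.66 and 18.24, and a fold is a ratio of intensities. Differences were tested with limma over all 21872 genes, and a gene is called where its p, adjusted by Benjamini-Hochberg, is under 0.05. In LeuA against WT, 6 of the 8 genes were called higher and 1 lower, where 17.9% of all genes were called higher and 18.9% lower. In LeuB against WT, 7 were called higher and 1 lower, against 21.8% and 20.4% of all genes. The arrays of the groups did not overlap for any of the 8 genes in either comparison, which held for 49.5% of all genes in LeuA against WT and for 52.4% in LeuB against WT. The median difference of the 8 genes was 5.36 in LeuA and 5.60 in LeuB, and that of all genes was 0.01 and -0.01. Both comparisons use the same WT arrays, so they are not independent of each other. In RNA from a sorted population, more cells of a type and more RNA per cell cannot be told apart.

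**Figure D2:**
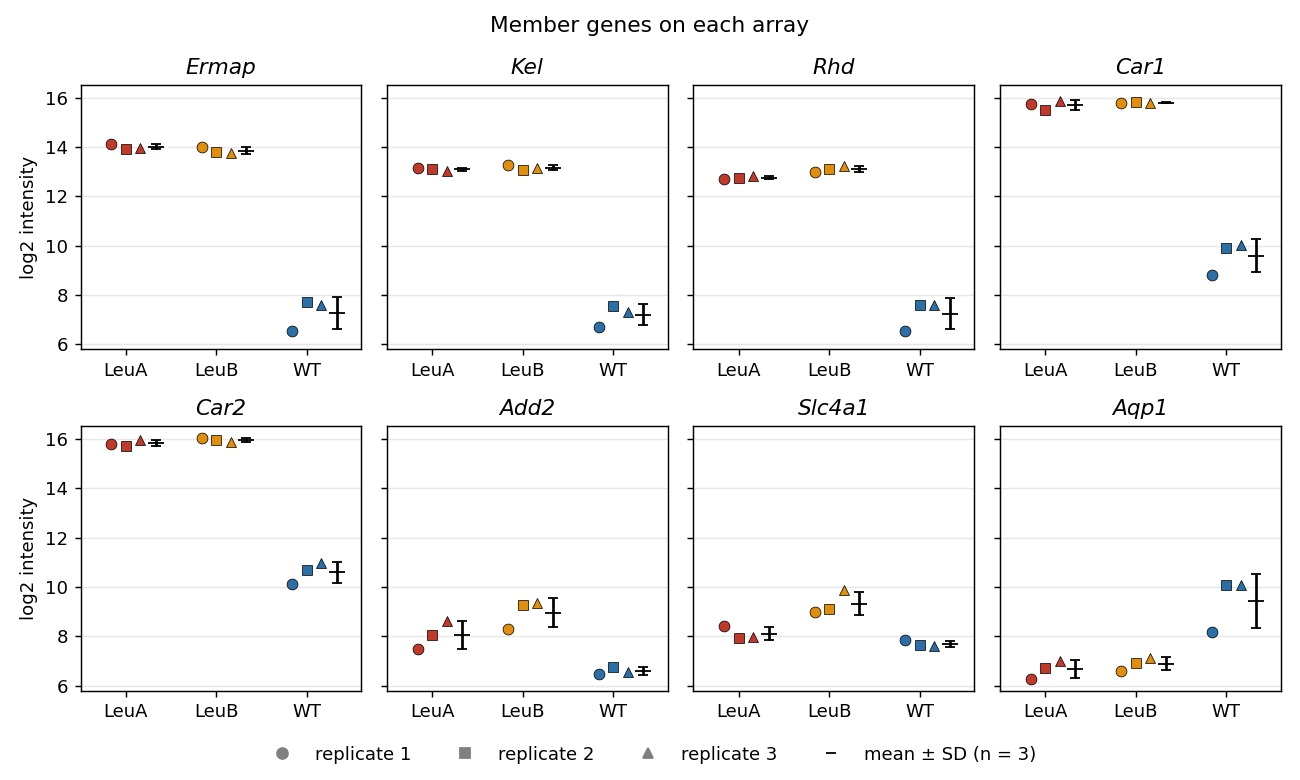
Log2 intensity (y axis) of each of the 8 genes on each of the 9 arrays, by group, with marker shapes for replicates 1 to 3 and the mean ± SD of 3 arrays beside them. Ermap, Kel, Rhd, Car1 and Car2 lie far above WT in both leukaemias, Add2 and Slc4a1 lie closer to it, and Aqp1 lies below it, with WT 1 as the lowest WT array in 7 of these panels.

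Ermap, which encodes a membrane protein of the immunoglobulin superfamily found on erythroid cells, gave 14.12, 13.93 and 13.96 on the LeuA arrays, 13.99, 13.81 and 13.76 on the LeuB arrays, and 6.54, 7.71 and 7.59 on the WT arrays. Both leukaemias were thus high on every array, and WT 1 was the lowest of all. The difference from WT was 6.73 in LeuA (SE 0.26, adjusted p = 3.04e-08, 106-fold) and 6.58 in LeuB (SE 0.26, adjusted p = 3.47e-08, 95.5-fold).

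Kel encodes the Kell glycoprotein, a zinc-dependent peptidase of the red cell surface that is linked to the XK protein. It gave 13.15, 13.09 and 13.02 in LeuA, 13.27, 13.08 and 13.15 in LeuB, and 6.72, 7.57 and 7.33 in WT. The 6 leukaemic arrays lay within a narrow band, with an SD of 0.06 in LeuA and 0.09 in LeuB, against 0.43 in WT (n = 3 each). Kel rose by 5.88 in LeuA (SE 0.18, adjusted p = 5.91e-09, 58.9-fold) and by 5.96 in LeuB (SE 0.18, adjusted p = 5.81e-09, 62.1-fold).

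Rhd encodes the Rh protein, a multi-pass membrane protein that forms a complex with the Rh-associated glycoprotein Rhag. It gave 12.70, 12.74 and 12.84 in LeuA, 12.99, 13.12 and 13.21 in LeuB, and 6.54, 7.62 and 7.59 in WT. Every LeuB array was above every LeuA array, and all 6 were far above WT. Between the leukaemias, arrays did not overlap, in either direction, for 30.2% of all genes. Rhd rose by 5.51 in LeuA (SE 0.25, adjusted p = 8.8e-08, 45.5-fold) and by 5.86 in LeuB (SE 0.25, adjusted p = 5.49e-08, 58-fold). Its partner Rhag rose by 2.28 (LeuA) and 4.48 (LeuB), on arrays between 8.11 and 9.02 in LeuA, between 10.62 and 10.89 in LeuB, and between 6.27 and 6.35 in WT.

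Car1, a cytosolic carbonic anhydrase abundant in red cells, gave 15.74, 15.48 and 15.86 in LeuA, 15.78, 15.82 and 15.77 in LeuB, and 8.82, 9.91 and 10.04 in WT. It rose by 6.10 in LeuA (SE 0.27, adjusted p = 8.83e-08, 68.7-fold) and by 6.20 in LeuB (SE 0.27, adjusted p = 7.59e-08, 73.5-fold). WT 1 was again the low WT array, and no leukaemic array came near the WT range.

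Car2, the fast cytosolic form of the enzyme, gave 15.80, 15.72 and 15.94 in LeuA, 16.02, 15.95 and 15.88 in LeuB, and 10.13, 10.69 and 10.98 in WT. It rose by 5.22 in LeuA (SE 0.18, adjusted p = 1.38e-08, 37.3-fold) and by 5.35 in LeuB (SE 0.18, adjusted p = 1.19e-08, 40.8-fold). Osteoclasts use Car2 as well, and of 8 osteoclast markers the acid phosphatase gene Acp5 rose (3.71 in LeuA, 4.68 in LeuB), 1 fell in LeuB and the rest were not called. Of all genes, 17.9% were called higher and 18.9% lower in LeuA, and 21.8% and 20.4% in LeuB. The osteoclast protease gene Ctsk lay between 6.05 and 6.24 in LeuA, 6.10 and 6.35 in LeuB, and 6.03 and 6.32 in WT, and the calcitonin receptor gene Calcr between 5.93 and 6.18 on all arrays. Both are near the bottom of the scale. The summed level of the 8 markers was 15.07 to 15.17 in LeuA, 16.01 to 16.14 in LeuB, and 11.79 to 12.07 in WT. Most of that sum is Acp5, at 15.01 to 15.12 in LeuA, 15.99 to 16.12 in LeuB, and 11.19 to 11.55 in WT.

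Add2 encodes beta-adducin, which caps actin filaments and joins them to spectrin. It gave 7.47, 8.05 and 8.64 in LeuA, 8.29, 9.27 and 9.34 in LeuB, and 6.47, 6.76 and 6.56 in WT. The leukaemic arrays were above all WT arrays but spread widely, with an SD of 0.58 in LeuA and 0.59 in LeuB against 0.15 in WT (n = 3 each). Add2 rose by 1.46 in LeuA (SE 0.33, adjusted p = 0.00589, 2.74-fold) and by 2.37 in LeuB (SE 0.33, adjusted p = 0.000256, 5.16-fold). LeuB 1, the LeuB array on the slide that also holds the WT and LeuA arrays, was the low one at 8.29. On that slide LeuA 1 (7.47) and WT 1 (6.47) were also the lowest of their groups. With slide as a block, or on that slide alone, the LeuB difference was 1.69 (adjusted p = 0.00699 and 0.0162).

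Slc4a1, the gene of band 3, gave 8.42, 7.95 and 7.96 in LeuA, 8.998, 9.10 and 9.88 in LeuB, and 7.85, 7.64 and 7.62 in WT. The LeuA arrays reached down to just above the highest WT array, whereas the LeuB arrays were clear of both other groups. The LeuA difference was 0.41 (SE 0.22, 95% interval -0.10 to 0.92, adjusted p = 0.215), so it was not called, and without LeuB 3, which lowers the SE, the same difference had an adjusted p of 0.0453. Slc4a1 rose by 1.63 in LeuB (SE 0.22, adjusted p = 0.000252, 3.08-fold).

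Aqp1, a water channel of the red cell membrane, was the gene that fell. It gave 6.29, 6.73 and 7.001 in LeuA, 6.61, 6.94 and 7.12 in LeuB, and 8.17, 10.07 and 10.08 in WT. All leukaemic arrays were below all WT arrays, and WT 1 lay well below both other WT arrays. Aqp1 fell by 2.77 in LeuA (SE 0.46, adjusted p = 0.000915, 6.82-fold lower than WT) and by 2.55 in LeuB (SE 0.46, adjusted p = 0.00143, 5.85-fold lower than WT). Without WT 1 it fell by 3.40 (LeuA) and 3.18 (LeuB) (adjusted p = 4.1e-06 and 6.2e-06). Endothelial cells also carry Aqp1. Of all genes, 17.9% were called higher and 18.9% lower in LeuA, and 21.8% and 20.4% in LeuB. Of 8 endothelial markers 4 rose and 3 fell in each leukaemia. Their summed level, the log2 of the added intensities, was 15.84 to 15.87 in LeuA, 15.37 to 15.58 in LeuB, and 13.36 to 13.43 in WT. Most of that sum is Egfl7, at 15.78 to 15.82 in LeuA, 15.27 to 15.47 in LeuB, and 13.12 to 13.21 in WT, while Tie1, Pecam1 and Emcn were the 3 that fell. The endothelial cadherin gene Cdh5 lay between 6.07 and 7.20 on all 9 arrays.

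**Figure D3:**
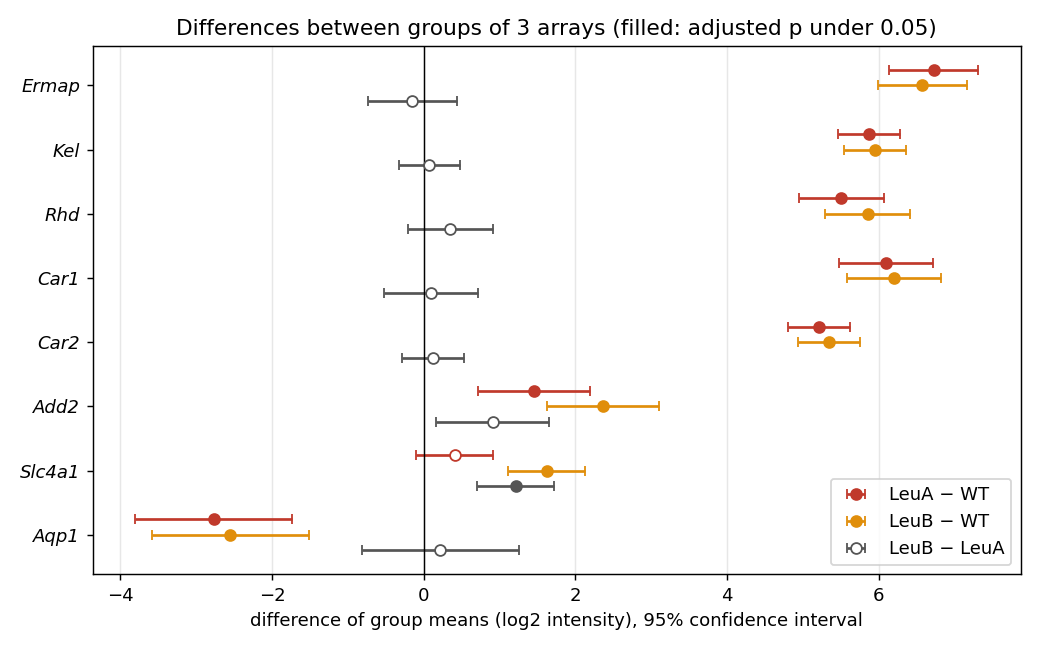
Difference of group means on the log2 scale (x axis) with its 95% confidence interval from limma, for 8 genes (y axis) and 3 comparisons of 3 arrays each. Filled points have an adjusted p under 0.05. Differences from WT run from 6.73 for Ermap to -2.77 for Aqp1 in LeuA, and between the leukaemias Slc4a1 alone among the 8 genes is called.

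In LeuB against LeuA, 1 of the 8 genes was called higher and 0 lower, where 6.91% of all genes were called higher and 5.36% lower, and the arrays of 2 genes, Slc4a1 and Rhd, did not overlap, against 30.2% of all genes. Slc4a1 averaged 9.33 ± 0.48 in LeuB and 8.11 ± 0.27 in LeuA (SD, n = 3 each), a difference of 1.22 (SE 0.22, adjusted p = 0.0086, 2.32-fold). Slc4a1 was no longer called when slide entered the fit (0.89, adjusted p = 0.178) or when only the slide with LeuB 1 and both other groups was used (0.89, adjusted p = 0.0847). Add2 differed by 0.91 (95% interval 0.17 to 1.65, adjusted p = 0.111), with arrays that overlapped. Without LeuB 1 it was called (1.25, adjusted p = 0.0164), and with slide as a block the difference was 0.24 (adjusted p = 0.829).

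For the other 6 genes the interval of the difference between LeuB and LeuA bounds how far apart they could be. It ran from -0.33 to 0.49 for Kel, from -0.28 to 0.54 for Car2, from -0.52 to 0.72 for Car1, from -0.74 to 0.44 for Ermap, from -0.21 to 0.91 for Rhd and from -0.82 to 1.26 for Aqp1. The adjusted p lay between 0.382 and 0.842. These intervals share an SE with the WT arrays, whose spread is wider than that of the leukaemic arrays for each of these 6 genes. With slide as a block the SE was larger for each of the 6, for example 0.39 against 0.26 for Ermap and 0.68 against 0.46 for Aqp1. Without WT 1 the Rhd difference of 0.35 had an SE of 0.08 and was called (adjusted p = 0.0228). With the 6 leukaemic arrays fitted alone, an alternative chosen after seeing the data, it was called as well (adjusted p = 0.0496).

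By group means the order of levels was LeuB, LeuA, WT for Kel, Rhd, Car1, Car2, Add2 and Slc4a1, and LeuA, LeuB, WT for Ermap. For Aqp1 it was WT, LeuB, LeuA. The step between the leukaemias was called for Slc4a1 and not for the other 7 genes. Of these, Add2 had an unadjusted interval above 0 and Rhd had arrays that did not overlap, as did 30.2% of all genes. The step from WT to the nearer leukaemia was called for every gene except Slc4a1.

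The WT arrays were not alike for these genes. Against the mean of WT 2 and WT 3, WT 1 was lower in 7 of the 8 genes, by 1.90 for Aqp1 (a difference of -1.90), with -1.16 for Car1, -1.11 for Ermap, -1.06 for Rhd, -0.73 for Kel, -0.70 for Car2 and -0.19 for Add2, and Slc4a1 gave 0.22. In that contrast 4 of the 8 genes were lower by more than 1, as were 0.535% of all genes, whose median absolute difference was 0.09. Erythroid transcripts of WT 1 did not all move this way. All 5 globin genes of the list were higher in WT 1, by 1.19 to 1.62, while the erythroid regulator genes Klf1 and Gata1 gave -0.72 each and the erythropoietin receptor gene Epor -0.85. These are 1 array against 2, so they carry no test. Without WT 1 the rises of Ermap, Kel, Rhd, Car1 and Car2 lay between 4.99 and 6.36 in LeuA and between 5.11 and 6.21 in LeuB, and each was called.

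**Figure D4:**
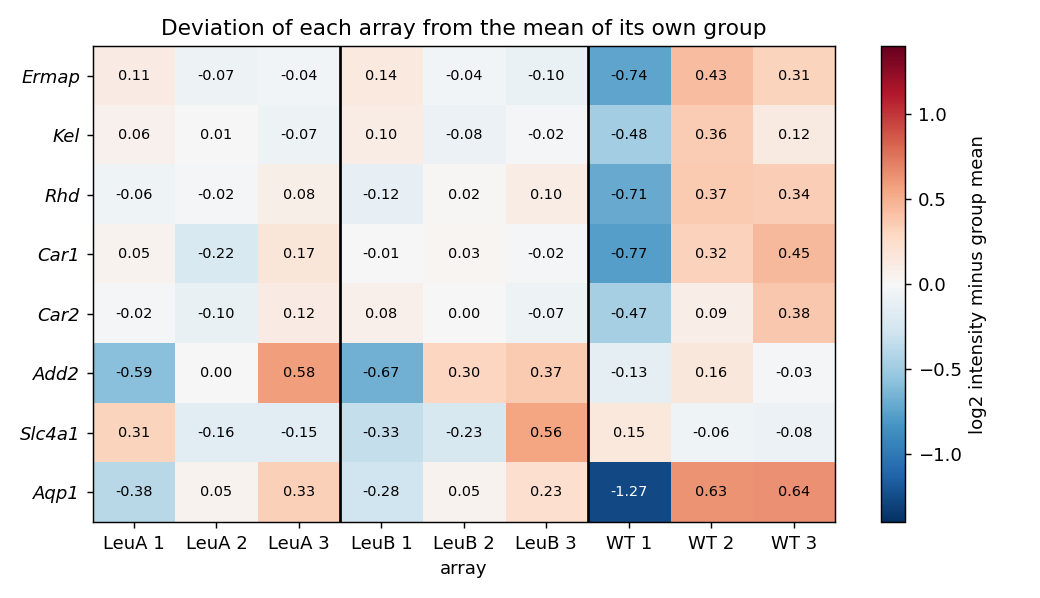
Deviation of each array (x axis) from the mean of its own group, in log2 intensity, for each of the 8 genes (y axis), with red for above and blue for below. WT 1 is below its group mean in 7 genes, by up to 1.27 for Aqp1, and among leukaemic arrays the deviations beyond 0.5 belong to Add2 and Slc4a1.

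The genes with the most similar profiles were sought among all genes, by the root mean square difference over the 9 arrays after each profile was centred on its own mean. The profile nearest to Rhd was that of the amino acid transporter gene Slc38a5 (0.09), and the next was Kel (0.22). Kel was also the nearest to Car1 (0.22), whose second was Ces2g (0.24). Nearest to Kel were Lmna (0.15), which encodes lamin A/C, and St3gal5 (0.16), and nearest to Car2 were Septin8 (0.15) and the erythropoietin receptor gene Epor (0.18). Ermap was nearest to Crip2 and Sphk1 (0.26 each), and Slc4a1 to Slc37a3 (0.15) and 5430401H09Rik (0.16). Add2 had Kdf1 (0.25) and Il1r1 (0.26), and the profile of Aqp1 was less closely matched, with Ermn (0.44) and Kif17 (0.45). These are descriptions over 9 arrays in 3 groups, and a profile of this kind is set mainly by the group means.

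Some of the genes lie near each other in the genome. Car1 and Car2 are on chromosome 3 in a run of carbonic anhydrase genes with the order Car13, Car1, Car3, Car2. The outer neighbour Car13 rose by 2.02 (LeuA) and 2.58 (LeuB). Car3, between Car1 and Car2, fell by 1.61 (LeuA) and 0.68 (LeuB) (adjusted p = 2.9e-05 and 0.00746). So the genes on both sides of Car3 rose while Car3 itself fell. Ermap and Rhd are on chromosome 4, Kel, Aqp1 and Add2 on chromosome 6 and Slc4a1 on chromosome 11. The measured neighbours of Kel, Llcfc1 and Olfr459, gave differences between 0.08 and 0.14 in both leukaemias and were not called, and those of Rhd, Maco1 and Rsrp1, gave 0.16 to 0.49, with Maco1 called in LeuB (adjusted p = 0.000835). On 1 side of Ermap, Svbp rose by 1.68 (LeuA) and 1.49 (LeuB), and on the other Zfp691 gave 0.09 and -0.22 and was not called. Beside Slc4a1, Ubtf and Rundc3a gave 0.28 and 0.20 in LeuA, not called, and rose by 0.57 and 0.59 in LeuB. Beside Add2, Tgfa rose by 0.59 (LeuA) and 0.65 (LeuB) and Figla was not called. Beside Aqp1, Mindy4 gave -0.30 in LeuA and -0.32 in LeuB, both called, and Ghrhr was not called. Neighbours were taken by position and not by value.

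Other genes of the red cell membrane were higher in the leukaemias too, mostly by smaller steps. Among 12 measured genes of the membrane skeleton, LeuA had 9 that rose and 1 that fell and LeuB 10 that rose and 1 that fell, with medians of 1.31 and 1.43. The share of all genes called higher was 17.9% in LeuA and 21.8% in LeuB, and called lower 18.9% and 20.4%. These shares stand beside the antigen and transporter lists below as well. The spectrin gene Sptb rose by 3.34 and by 3.31. Epb42, whose product binds band 3, rose by 2.39 and by 2.66, and its second probe gave 1.30 and 1.85. Ank1, the ankyrin that ties band 3 to spectrin, rose by 1.99 and by 2.48, and Tmod1, which caps actin filaments, by 1.97 and by 1.69. Stom, which encodes the membrane protein stomatin, fell by 1.38 (LeuA) and 2.66 (LeuB). The probes of Dmtn, an actin-bundling protein gene named here after its values were seen, disagreed, with 0.25 and 0.41 for the brighter and 2.602 and 0.89 for the other.

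Of 19 measured genes for red cell antigens and glycoproteins, LeuA had 14 that rose and 2 that fell and LeuB 14 that rose and 1 that fell, with medians of 1.71 and 1.58. The complement regulators Cd59a (6.03 and 5.39) and Cd55 (5.61 and 4.97) rose most in both comparisons. Cd59a gave 13.81 to 13.93 in LeuA, 13.15 to 13.30 in LeuB, and 7.79 to 7.98 in WT, so that no group overlapped another. The chemokine-binding Duffy antigen gene Ackr1 rose by 4.12 (LeuA) and 1.79 (LeuB), Icam4, an adhesion molecule of red cells, by 3.77 and by 3.49, and Tspo2, an erythroid membrane protein gene, by 3.53 and by 4.15. Xk, the partner of Kel in the membrane, rose by 0.85 (LeuA) and 1.19 (LeuB), far less than Kel.

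Of 19 measured transporter and aquaporin genes, 10 rose in LeuA and 8 in LeuB, 0 fell in either, and the medians were 0.30 and 0.14. No other measured aquaporin gene was called lower, though Aqp4 gave -0.46 in LeuB (adjusted p = 0.055). Aqp9 rose by 2.85 (LeuA) and 2.92 (LeuB), Aqp11 by 2.73 and by 3.17, and Aqp8 by 2.12 and by 1.71. The glucose transporter gene Slc2a1 rose by 2.55 and by 2.15. Atp2b4 was not called on its brightest probe (0.30 in LeuA and 0.09 in LeuB), while its other probe rose by 0.97 and by 1.16. Of the 5 measured relatives of band 3 in the list, Slc4a2 rose by 0.22 in LeuA (adjusted p = 0.0299), and no other difference from WT among them was called.

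Of the 14 other carbonic anhydrases measured, LeuA had 28.6% that rose (4 genes) and 21.4% that fell (3 genes), near the 17.9% and 18.9% of all genes. LeuB had 28.6% that rose (4 genes) and 35.7% that fell (5 genes), against 21.8% and 20.4% of all genes, and the median was 0.07 in each. Besides Car13, the rises were in Car15 (2.36 in LeuA and 1.91 in LeuB), Car8 (1.49 and 1.43) and Car7. Car12 fell by 2.74 and by 2.92, and Car9, a membrane-bound form known for its response to low oxygen, fell by 2.03 and by 1.43. With values floored at the level of genes of other organs, the Car8 rise in LeuB was 0.55 (adjusted p = 0.00769). The WT values of Car8 (5.77 to 5.96) lay below that floor (6.63 to 6.90 in WT), which lowers the LeuA rise as well. The floored LeuA value is not given here. No other carbonic anhydrase reached the differences of Car1 and Car2.

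**Figure D5:**
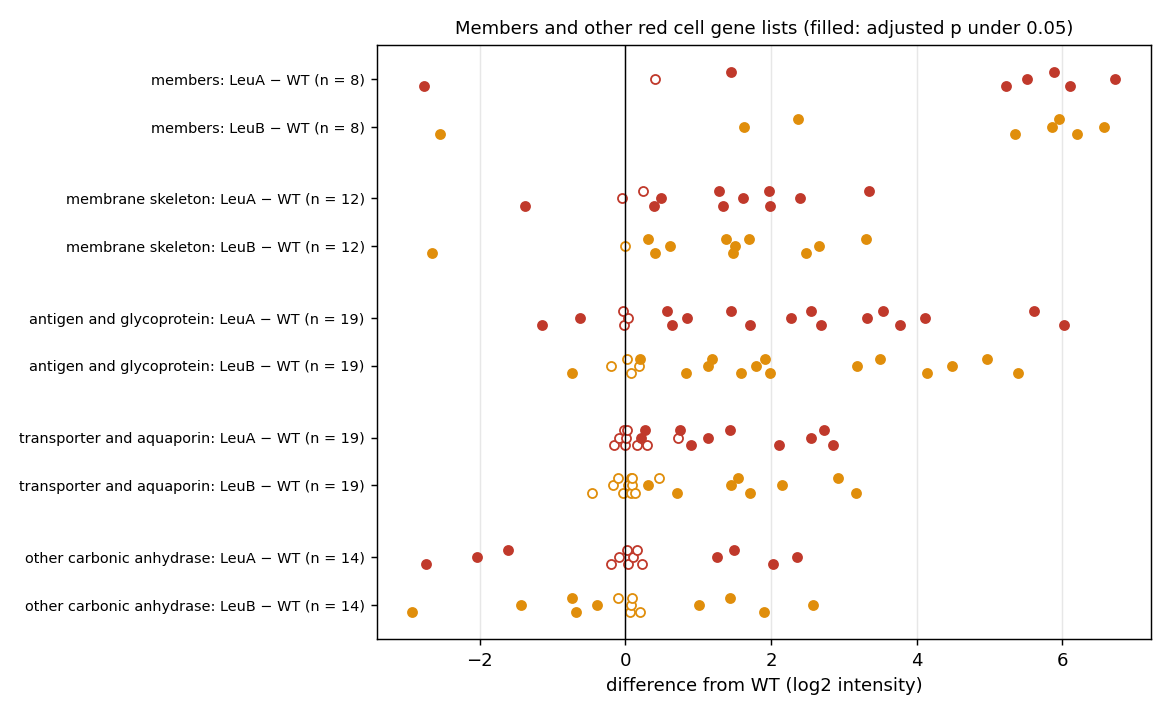
Difference from WT on the log2 scale (x axis) for the 8 genes and for 4 lists of other red cell and carbonic anhydrase genes, with LeuA and LeuB in separate rows and 1 point per gene. Filled points have an adjusted p under 0.05. The 5 points of Ermap, Kel, Rhd, Car1 and Car2 lie beyond 5, where the other lists hold Cd59a and Cd55 in LeuA and Cd59a in LeuB.

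Among the marker lists, set against 17.9% of all genes called higher and 18.9% lower in LeuA and 21.8% and 20.4% in LeuB, the erythroid and GMP lists had the highest shares called in 1 direction. Of 23 measured other erythroid markers, which share Tspo2 with the antigen list, 20 rose in LeuA and 22 in LeuB. The globin gene Hbb-bs rose by 7.44 (LeuA) and 8.38 (LeuB), and the median difference of the list was 2.61 and 2.68. The summed level of the list was 19.03 to 19.26 in LeuA, 19.26 to 19.42 in LeuB, and 16.09 to 16.15 in WT. On the leukaemic arrays most of that sum is globin, with Hba-a2 at 17.54 to 17.92 in LeuA and 17.81 to 18.02 in LeuB. In WT, Hba-a2 lay between 11.30 and 12.71, and Hemgn was the highest, at 14.13 to 14.49. Of 14 GMP markers, 12 fell in each leukaemia, with a summed level of 15.18 to 15.52 in LeuA, 15.50 to 15.61 in LeuB, and 19.68 to 19.80 in WT. The granule enzyme gene Mpo, a GMP marker, lay between 7.74 and 8.09 in LeuA, 6.46 and 8.56 in LeuB, and at 18.24, the top of the scale, in WT. On the leukaemic arrays most of the GMP sum is Csf3r, at 14.71 to 15.31 there and 14.96 to 15.39 in WT, 1 of the 2 markers that were not called. Of the genes of the gate, Kit, the other marker not called, lay between 12.26 and 12.51 on the leukaemic arrays and between 12.50 and 12.76 in WT. The CD16/32 genes were lower, Fcgr3 by a difference of -1.78 in LeuA and -1.43 in LeuB and Fcgr2b by -1.64 and -0.96, each called. The WT arrays thus carried the defining genes of GMPs, while on the leukaemic arrays most of them were low, and the name GMP there is that of the labels. Of 13 mast cell and basophil markers, LeuA had 7 that rose and 3 that fell and LeuB 7 and 4, with a summed level of 17.19 to 17.41 in LeuA, 16.51 to 16.70 in LeuB, and 14.93 to 15.30 in WT. Most of that sum is Hdc (15.82 to 16.11) with Fcer1a (15.47 to 16.08) in LeuA, and Hdc (15.79 to 16.02) in LeuB. In WT, Hdc lay between 14.17 and 14.25 and Fcer1a between 8.11 and 8.57. Of 8 megakaryocyte markers, 1 rose and 5 fell in each leukaemia. Of 6 B cell markers 3 fell in each, and of 7 T cell and NK cell markers 1 fell in LeuA, while 1 rose and 3 fell in LeuB. Of 13 genes of other organs 1 rose in LeuA and 2 in LeuB. The part of these cell types in the results above was not tested.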

How the data were processed

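Total RNA was measured on 1-colour arrays, with 3 arrays per group. The values are log2 intensities as the authors deposited them. The submitters' processing notes name RMA, affy and limma without version or role, and background correction is not described. Array medians of 7.02 to 7.04 and a shared maximum of 18.24 show a common distribution, and the values were used as deposited. Precision is limited by the number of arrays. Of 37877 probes, 24877 had 1 gene symbol, 0 several and 13000 none in the annotation table used here. The brightest probe, by mean over the 9 arrays, represented each of 21872 genes, with no filter on dim probes. Group means were estimated over all 9 arrays in limma 3.58.1 (lmFit, eBayes) in R 4.3.3 (two-sided, Benjamini-Hochberg over all genes, 95% intervals), after a check on simulated data. The genes and lists were chosen with earlier results of these data known. Other genes are named by rule: from each red cell list, up to 4 called genes with the largest difference per comparison (up to 2 from marker lists, given here in part), and for each of the 8 genes the 2 nearest profiles. Xk, Gypc, Bsg, Abcb6, Art4, Slc4a2, Car7, Dmtn, Atp2b4, Cdh5, Pecam1 and Emcn were added after their values were seen. So were Csf3r, Fcgr3, Ctsk, Calcr, Kit, Klf1, Gata1, Hdc, Hba-a2, Hemgn and the genomic neighbours. Alternatives changed the probe rule, the dim filter, the normalization, a floor, the variance model, slide, replicate block and the arrays used.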

Additional observations from a re-analysis of the deposited data

Results flagged for a closer look

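The test of LeuB against LeuA (limma, Benjamini-Hochberg over all genes) called Slc4a1 among the 8 genes, higher in LeuB by 1.22 (adjusted p = 0.0086). Of the 64 measured genes in the 4 lists of other red cell and carbonic anhydrase genes, 11 were called higher (17.2%) and 8 lower (12.5%), where 6.91% of all genes were called higher and 5.36% lower. Values are LeuB minus LeuA. Among genes of the membrane skeleton, Stom gave -1.28 (adjusted p = 0.00153) and Ank1 0.49 (0.0144). The probes of Dmtn disagreed here too. The brighter gave 0.16 (0.452), and the other -1.71 (0.000246, with every probe tested separately). Among antigens and glycoproteins, Rhag gave 2.21 (0.000149), Ackr1 -2.33 (0.000659), Cd44 0.96 (0.000283), Slc14a1 -0.97 (0.000394), Cd59a -0.64 (0.00102), Gypc -0.78 (0.0016), Bsg -0.44 (0.00355), Abcb6 -0.57 (0.00646), Tspo2 0.61 (0.0415), Art4 0.53 (0.045) and Xk 0.34 (0.0478). Among transporters and aquaporins, Slc29a1 gave 0.55 (0.00133), Aqp11 0.44 (0.0115) and Aqp3 -0.66 (0.0224). Among carbonic anhydrases, Car3 gave 0.93 (0.00632), Car13 0.56 (0.0106) and Car9 0.60 (0.0428).

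Over all genes, 2683 were called in the main fit and 869 with slide as a block. In that setting the 8 list genes still called were Stom, Rhag, Ackr1, Cd44, Slc14a1, Cd59a, Gypc and Slc29a1. The other 11 of the 19 were not called. Of those 11, the difference was as large or larger for Ank1 (0.50, adjusted p = 0.131), Tspo2 (0.62, 0.262), Aqp11 (0.53, 0.0505) and Aqp3 (-0.77, 0.115). It was smaller for Car13 (0.49, 0.154), Abcb6 (-0.50, 0.113), Xk (0.30, 0.351), Bsg (-0.33, 0.0629), Art4 (0.42, 0.407), Car3 (0.63, 0.128) and Car9 (0.38, 0.485), and for Slc4a1 (0.89, 0.178). Leaving out 1 array also ended the calls of Ank1 (without LeuB 3), Aqp3, Car9, Xk, Art4 and Tspo2, the last 5 with any of several arrays. No test for outlying arrays was run, since groups of 3 are too small for it, and the values of WT 1 in the text are a description.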

How the results depend on the processing

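Of 24 differences (8 genes in 3 comparisons) under 18 alternatives, 423 of 432 values kept their direction and their side of the threshold, and every difference from WT kept its direction. In LeuA against WT 7 or 8 of the 8 genes were called under every alternative, and in LeuB against WT all 8. Over all genes the counts called ran from 6619 to 10508 in LeuA and from 6776 to 13280 in LeuB. The highest count in each is of probes, each tested separately. In LeuB against LeuA, 0 were called with slide as a block or on slide 1 alone, and 2 with the replicate block, without WT 1, without LeuB 1 or with the 6 leukaemic arrays alone, and leaving out 1 array gave 1 to 2. The 3 reversed values were small and not called: Aqp1 gave -0.0584 with slide as a block and on slide 1 alone, and Car1 gave -0.01 without LeuA 2, in a range of -0.0113 to 0.1834 over the fits without 1 array. The replicate block called Add2 between the leukaemias (0.91, adjusted p = 0.0356). The numbers were not used as pairs, since same-numbered arrays of different groups correlated between -0.04 and 0.10 and 1 of 9 pairs exceeded 0.1. For 4 of 9 arrays the best partner had the same number. Among the 8 genes, though, Add2, Aqp1 and Rhd were lowest on replicate 1 in every group. Their SE against WT changed with the replicate block, from 0.33 to 0.21 for Add2, from 0.46 to 0.30 for Aqp1 and from 0.25 to 0.20 for Rhd. With the replicate block 7862 genes were called in LeuA and 9154 in LeuB against WT. All genes called in LeuB against LeuA numbered 2683, and 869 with slide as a block, 581 on slide 1 alone, 1783 with the 6 leukaemic arrays alone and 1380 to 5498 without 1 array (5498 without LeuB 1). The cause was not tested. Slide 2 holds LeuB arrays only, so slide and LeuB are separated by LeuB 1 alone. Levels near the bottom of the scale have no detection flags, so folds from a low WT level are ratios of intensity only. The same holds for the fold of Aqp1, whose leukaemic level is low.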
